A study of Homo sapiens with 8 samples.

Results

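The genes described here encode the SR proteins and the heterogeneous nuclear ribonucleoproteins (hnRNPs), taken as every gene whose symbol in the platform annotation starts with SRSF or HNRNP. The rule found 34 genes, 12 of the SRSF kind and 22 of the HNRNP kind, out of 18132 genes measured. They were read by 137 probe sets assigned to a lone gene, out of 44988 such probe sets. Messenger RNA was measured on 8 Affymetrix expression arrays in AGS, an established human gastric adenocarcinoma cell line. Control AGS cells gave 4 arrays, and AGS cells kept for 72 hours with 3.4 nM podofilox gave the other 4. Podofilox, or podophyllotoxin, binds tubulin and blocks microtubule assembly. All groups share the same cell line, which comes from a lone tumour, and the labels give no genetic change in either group. They do not say whether control cells received the solvent, or whether the replicates were separate cultures, so the spread behind the p-values is that of 8 arrays and may be technical only.

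SR proteins carry RNA recognition motifs and a tail rich in arginine and serine. They bind enhancer sequences in exons and help the spliceosome to recognise nearby splice sites, and kinases of the SRPK and CLK families phosphorylate the tail. The hnRNPs coat newly made transcripts, and many of them bind silencer sequences and keep exons out of the mRNA. Several genes of both families are known to limit their own mRNA through exons that introduce an early stop codon and expose the transcript to nonsense-mediated decay.

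Values are the deposited log2 expression values, in which a step of 1 is a doubling, and a difference is podofilox minus control. Each gene was represented by its brightest probe set. The words rose and fell are used where the Benjamini-Hochberg adjusted p by limma, taken over all 18132 genes, was under 0.05. The correlation across genes was 0.997 to 0.999 between arrays within a group and 0.995 to 0.997 between a control and a podofilox array. The cells carried epithelial mRNA: the mean level of 6 epithelial markers ranged from 12.70 to 12.76 over the control arrays and from 12.89 to 12.93 over the podofilox arrays, and CLDN4 and CLDN7 among them rose by 0.50 and 0.37. Of 8 fibroblast markers, whose mean level was 4.40 to 4.59 over control arrays and 4.46 to 4.61 over podofilox arrays, 0 rose and 0 fell by limma (1 higher and 1 lower at an unadjusted p under 0.05). Of 7 measured immune markers (mean level 6.17 to 6.30, then 6.25 to 6.35) CD68 rose by 0.28. LYZ, the lysozyme gene, read 13.60 in control cells and 13.62 with podofilox, while the leukocyte gene PTPRC read 3.62 and 3.49 (means of 4 arrays). Of 7 endothelial markers (5.41 to 5.72, then 5.46 to 5.59) CDH5 fell by 0.44. Ribosomal 18S control probe sets moved with the groups, at 12.59 to 12.92 (mean of these sets) without the drug and 12.01 to 12.42 with it. Their part, and that of the markers, in the results below was not tested.

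Podofilox-treated cells had less mRNA for 9 of the 34 genes and more for 0. These were 6 of 12 SRSF genes (SRSF1, SRSF2, SRSF3, SRSF5, SRSF7 and SRSF8) and 3 of 22 HNRNP genes (HNRNPU, HNRNPAB and HNRNPD). The falls were small, from 1.17-fold for SRSF7 to 1.47-fold for SRSF2. Among all genes tested 21% passed the test, 12.5% lower and 8.55% higher, while 26.5% of the SRSF and HNRNP genes fell. By family 50% of the SRSF genes fell, but 13.6% of the HNRNP genes, which is near the share of all genes. By limma at an unadjusted p under 0.05, 12 members were lower and 0 higher. The share of all genes at that unadjusted threshold was not counted. This count and the other unadjusted counts given here therefore have no background to be set against. The median difference was -0.18 over the SRSF genes and -0.04 over the HNRNP genes, against 0.01 over all genes. The members are bright, and bright genes were called more often: of the 4286 genes with a mean of at least 9, a level chosen after the values were seen, 20.5% fell, as did 8 of the 29 members at that level (27.6%). The podofilox values lay all below the control values for 14 of the 34 genes (41.2%), and for 15.6% of all genes. They lay all above for 0 members and for 10.6% of all genes. Since whole cultures were measured, fewer cells with a transcript and less of it per cell cannot be told apart.

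**Figure D1:**
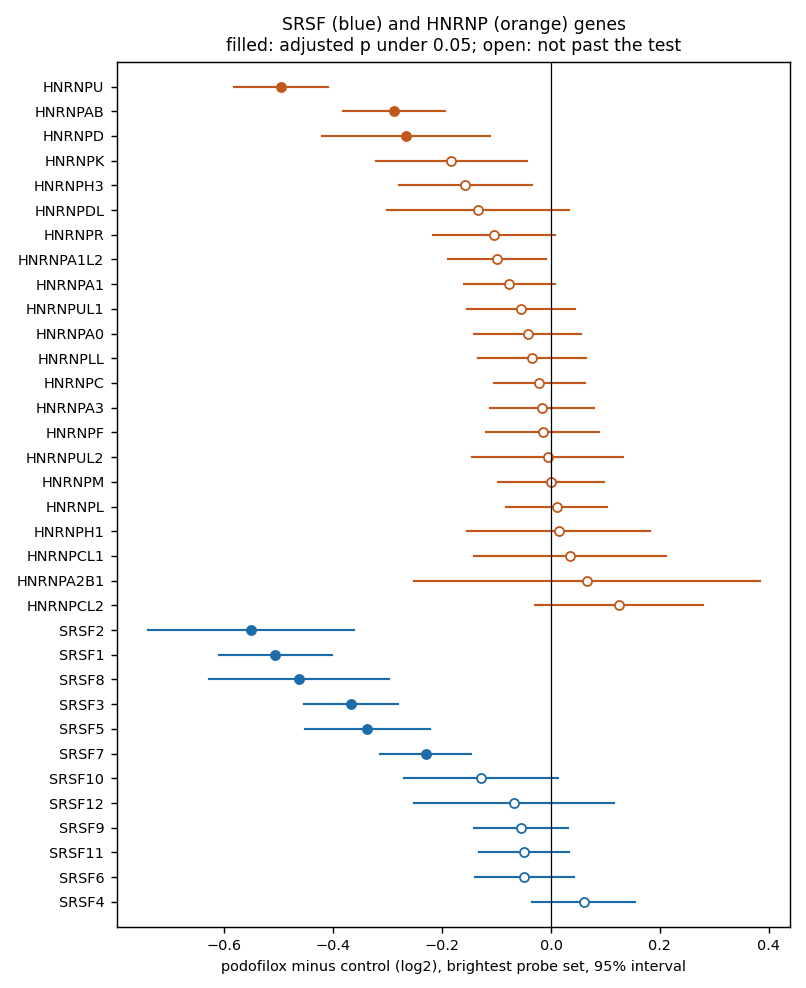
Difference in log2 expression (podofilox minus control, horizontal axis) of the brightest probe set of each of the 34 genes, with limma's 95% interval as a line. Filled points passed the test: 6 SRSF genes (blue) and 3 HNRNP genes (orange), all below 0, while the open points of the other 25 genes lie between -0.18 and 0.12.

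SRSF1, the SR protein also known as SF2/ASF, which promotes the use of nearby 5' splice sites, read 11.21, 11.31, 11.13 and 11.21 in the control replicates in their numbered order. The podofilox replicates read 10.67, 10.71, 10.73 and 10.73. The groups did not overlap, and the difference was -0.51 (SE 0.05, adjusted p = 1.13e-04 by limma). For SRSF3, the smallest SR protein, which also takes part in mRNA export, the control arrays read 12.64, 12.68, 12.67 and 12.68 and the podofilox arrays 12.27, 12.34, 12.28 and 12.30. Every podofilox value was lower than every control value (difference -0.37, SE 0.04, adjusted p = 1.96e-04). Without probe sets of the _x_at and _s_at kinds, which can bind several transcripts, SRSF3 was read by a dimmer probe set at -0.10 (adjusted p = 0.2), past no threshold.

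SRSF2, also called SC35, a constituent of nuclear speckles, gave 10.34, 10.49, 10.13 and 10.28 in control cells and 9.58, 9.75, 9.89 and 9.81 with podofilox. This was the largest difference among the 34 brightest probe sets (-0.55, SE 0.09, adjusted p = 0.00151), and its groups were apart although both spread widely. The difference was -0.75 within arrays numbered 1 and 2 and -0.35 within arrays 3 and 4. The 18S control sets differed in the same pattern, at 12.86 and 12.92 on control arrays 1 and 2 against 12.01 and 12.06 on podofilox arrays 1 and 2, but 12.59 and 12.59 against 12.42 and 12.41 on arrays 3 and 4, and their part was not tested. SRSF8, an intronless copy of SRSF2, gave 6.95, 7.09, 6.87 and 6.91 on control arrays and 6.36, 6.47, 6.68 and 6.46 on podofilox arrays. It too was lower on every podofilox array (difference -0.46, SE 0.07, adjusted p = 0.00189), and it was -0.61 over the arrays numbered 1 and 2 and -0.32 over those numbered 3 and 4. Signals of such related sequences may not be fully separable on an array.

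SRSF5 (SRp40) read 12.06, 12.06, 12.17 and 12.13 in control cells and 11.81, 11.82, 11.65 and 11.77 with podofilox. Its values did not overlap (difference -0.34, SE 0.05, adjusted p = 0.0014), and it was -0.24 over the arrays numbered 1 and 2 and -0.43 over those numbered 3 and 4. SRSF7 (9G8), which has a zinc knuckle beside its RNA recognition motif, went from 11.85, 11.88, 11.84 and 11.85 to 11.59, 11.63, 11.63 and 11.64. This was the smallest of the called differences (-0.23, SE 0.04, adjusted p = 0.00203), but the arrays of a group lay close together, with an SD of 0.01 in control cells and 0.02 with podofilox (n = 4 each).

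HNRNPU, scaffold attachment factor A, which binds RNA and the nuclear matrix, had the smallest p of the 34 genes. Its control arrays read 11.54, 11.60, 11.54 and 11.60 and its podofilox arrays 11.07, 11.08, 11.09 and 11.06. The difference was -0.50 (SE 0.04, adjusted p = 4.28e-05), the same to 2 decimals within arrays 1 and 2 (-0.50) and nearly so within arrays 3 and 4 (-0.49). HNRNPAB, an RNA-binding protein of the A/B kind, read 11.81, 11.79, 11.74 and 11.78 in control cells and 11.50, 11.51, 11.53 and 11.42 with podofilox. Again the groups did not overlap (difference -0.29, SE 0.04, adjusted p = 0.00104).

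HNRNPD, or AUF1, which binds AU-rich elements and takes part in mRNA decay, was the least secure of the 9. Control arrays read 12.17, 12.28, 12.03 and 12.03 and podofilox arrays 11.78, 11.81, 11.998 and 11.85, so that podofilox array 3 nearly reached the lowest control arrays. The difference was -0.27 (SE 0.07, adjusted p = 0.0212), and it was -0.43 over the arrays numbered 1 and 2 and -0.11 over those numbered 3 and 4. The 18S control sets also differed more over arrays 1 and 2, and their part was not tested. The other fallen genes are given here first over arrays 1 and 2 and then over arrays 3 and 4. SRSF1 differed by -0.57 and -0.44, SRSF2 by -0.75 and -0.35, and SRSF8 by -0.61 and -0.32. SRSF7 differed by -0.25 and -0.21, HNRNPAB by -0.29 and -0.28, and HNRNPU by -0.50 and -0.49. SRSF3 differed by -0.35 and -0.38, and SRSF5 by -0.24 and -0.43. The call of HNRNPD ended without control replicate 1 (adjusted p = 0.0559) and without podofilox replicate 1 (0.0529), 2 (0.0599) or 4 (0.051).

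**Figure D2:**
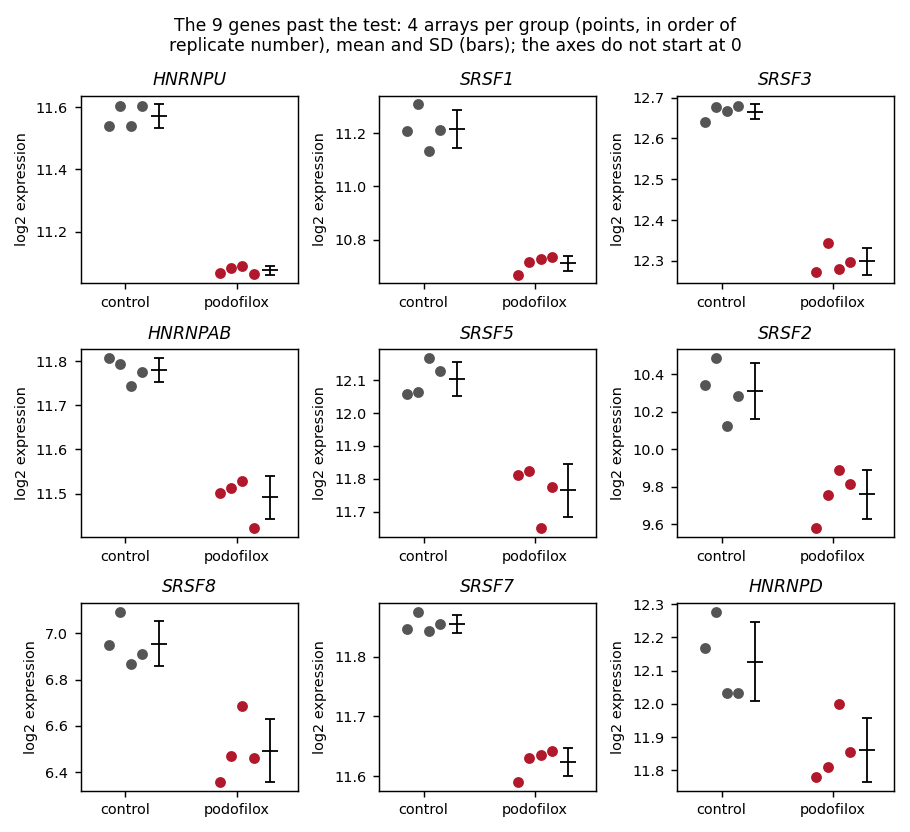
Log2 expression (vertical axis, which does not start at 0) of the 9 genes that fell, with 4 control arrays (grey) and 4 podofilox arrays (red) as points and the mean with its SD as bars. In every panel the red points lie below the grey ones, with the narrowest gap in HNRNPD (11.998 against 12.03).

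The sequences before the starts of these genes are shown because these genes fell in the same cells. RefSeq promoter windows were found for 32 of the 34 genes and for 8 of the 9 that fell, and the 4 printed are those of the 4 fallen genes with the smallest p. Each is the 250 bases before the annotated start, 5' to 3' on the gene's strand in GRCh38.p14. Capitals mark the letters of the CCAAT box (CCAAT or its reverse complement ATTGG) and of the TATA box (TATAAA or its reverse complement TTTATA). Matches were taken on either strand and anywhere in the window, so a match need not be a working box. The window of HNRNPU is chr1:244864544-244864793 (minus strand), that of SRSF1 chr17:58007247-58007496 (minus strand), that of SRSF3 chr6:36594112-36594361 (plus strand) and that of HNRNPAB chr5:178204283-178204532 (plus strand).
HNRNPU: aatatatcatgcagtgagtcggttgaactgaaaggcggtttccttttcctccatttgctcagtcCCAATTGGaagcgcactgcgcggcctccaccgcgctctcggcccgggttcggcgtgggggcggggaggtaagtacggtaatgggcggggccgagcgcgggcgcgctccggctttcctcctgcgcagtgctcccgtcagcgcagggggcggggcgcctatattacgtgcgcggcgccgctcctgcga
SRSF1: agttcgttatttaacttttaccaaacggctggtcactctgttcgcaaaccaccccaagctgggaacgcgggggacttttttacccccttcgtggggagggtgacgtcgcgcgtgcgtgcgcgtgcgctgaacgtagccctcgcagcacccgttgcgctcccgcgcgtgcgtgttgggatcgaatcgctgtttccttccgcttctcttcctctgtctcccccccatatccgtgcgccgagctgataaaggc
SRSF3: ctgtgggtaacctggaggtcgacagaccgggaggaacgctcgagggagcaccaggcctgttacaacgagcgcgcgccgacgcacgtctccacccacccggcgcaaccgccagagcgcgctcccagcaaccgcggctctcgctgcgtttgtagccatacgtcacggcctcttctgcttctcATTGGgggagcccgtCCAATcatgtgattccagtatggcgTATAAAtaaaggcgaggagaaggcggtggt
HNRNPAB: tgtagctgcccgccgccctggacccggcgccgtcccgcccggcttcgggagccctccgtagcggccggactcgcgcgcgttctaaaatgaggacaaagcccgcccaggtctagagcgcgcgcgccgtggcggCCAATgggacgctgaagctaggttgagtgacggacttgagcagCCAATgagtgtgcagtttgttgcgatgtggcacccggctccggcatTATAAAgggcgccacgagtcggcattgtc
HNRNPU holds CCAAT 186 bases and ATTGG 183 bases before the start, which overlap. SRSF3 holds the reverse CCAAT box 70 bases, the forward one 55 bases and the TATA box 30 bases before its start. HNRNPAB holds CCAAT at 118 and at 75 bases and TATAAA at 29 bases. SRSF1 holds 0 of these boxes in this window. RefSeq gives some genes several starts, so the 32 members have 46 windows and the 8 fallen genes 10, and shares are given per window. CCAAT on either strand lay in 22 of the 46 windows (47.8%) and 5 of the 10, and in 32% of all 35116 windows. TATAAA on either strand lay in 6 of the 46 (13%) and 4 of the 10, and in 10.7% of all windows. The E-box CACGTG, which is its own reverse complement, lay in 6 of the 46 (13%), 1 of the 10 and 6.34% of all. CCGGAA or TTCCGG, the core of ETS factor sites, lay in 8 of the 46 (17.4%), 2 of the 10 and 14.5% of all. Matches of letters are a description of these windows and say nothing about binding. The members' windows had a median GC content of 64.8%, and all windows 58%.

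The other 6 SRSF genes did not pass the test on their brightest probe set. SRSF10, a splicing repressor when dephosphorylated, differed by -0.13 (95% interval -0.27 to 0.01), SRSF12 by -0.07, SRSF9 by -0.06, SRSF11 by -0.05, SRSF6 by -0.05 (-0.14 to 0.04), and SRSF4 by 0.06 (-0.04 to 0.15). SRSF12 was dim (4.40 in control cells), so little can be read of it.

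Of the 19 HNRNP genes that did not pass, HNRNPK, which binds C-rich sequences through KH domains, came closest. It read 11.52, 11.67, 11.55 and 11.61 in control cells and 11.24, 11.42, 11.496 and 11.46 with podofilox. Those groups did not overlap, but the difference of -0.18 (SE 0.06) had an adjusted p of 0.063 by limma. HNRNPH3 differed by -0.16 (adjusted p = 0.0692). Without podofilox replicate 3 both passed (HNRNPK -0.21, adjusted p = 0.047, and HNRNPH3 -0.19, adjusted p = 0.0373). With all arrays both passed when only genes above the median signal were tested, and after quantile normalization once more. The same held with trend and robust estimation, and with array weights. Across these settings the adjusted p by limma was at most 0.0437 for HNRNPK and 0.0254 for HNRNPH3. HNRNPDL, a relative of HNRNPD, differed by -0.13 and HNRNPR by -0.11. HNRNPA1, which binds exon silencers, differed by -0.08 (95% interval -0.16 to 0.01). With trend and robust estimation HNRNPR (adjusted p = 0.0472) and HNRNPA1 (0.0121) passed. Without _x_at and _s_at sets HNRNPDL (-0.34, adjusted p = 0.00165) and HNRNPR (-0.19, adjusted p = 0.0137) passed. The G-run binding proteins HNRNPF and HNRNPH1 differed by -0.02 (-0.12 to 0.09) and 0.01 (-0.15 to 0.18), the U-tract binding protein HNRNPC by -0.02 (-0.10 to 0.06) and the CA-repeat binding protein HNRNPL by 0.01 (-0.08 to 0.10). HNRNPUL1 (-0.06), HNRNPA0 (-0.04), HNRNPLL (-0.03), HNRNPA3 (-0.02) and HNRNPUL2 (-0.01) also lay close to 0. HNRNPA2B1 read 12.87, 12.74, 12.60 and 12.61 in control cells and 12.49, 12.53, 13.20 and 12.86 with podofilox. Its podofilox arrays lay on both sides of the control arrays, and its interval was the widest of the 34 (-0.25 to 0.38).

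HNRNPA1L2 (-0.10), HNRNPCL1 (0.03) and HNRNPCL2 (0.12) are close copies of HNRNPA1 and HNRNPC. They were dim, at 3.80, 3.46 and 3.46 in control cells, and their assignment is uncertain. HNRNPM, a splicing regulator in epithelial-mesenchymal transition, differed by 0.00 on its brightest probe set, which read 12.39 ± 0.01 and then 12.39 ± 0.06 (SD, n = 4 each). Its other probe sets differed from this and are given below.

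Reading every probe set, 52 of the 137 fell (38%) and 4 rose (2.92%), against 10.2% and 7.83% of all single-gene probe sets, with p-values adjusted over those 44988. Bright probe sets were called more often: with only those above the median signal tested, 58 of 125 fell, against 23.4% of all. Of the SRSF probe sets 29 of 54 fell, and of the HNRNP probe sets 23 of 83. Probe sets of a gene can overlap in sequence and share their RNA, so they are not independent. All 6 probe sets of SRSF1 fell (differences from -0.51 to -0.31), as did all 3 of SRSF2 (-0.71 to -0.54) and all 3 of HNRNPAB (-0.37 to -0.29). The same held for 5 of 7 probe sets of SRSF3, 7 of 11 of SRSF5, 3 of 4 of SRSF7, 6 of 10 of HNRNPU and 5 of 8 of HNRNPD. Further genes had at least 1 probe set that fell although the brightest did not pass. These were SRSF10 (3 of 7), HNRNPK (2 of 6), HNRNPM (2 of 3), and SRSF11, HNRNPC, HNRNPDL, HNRNPH3, HNRNPR and HNRNPUL1 with 1 each. The fallen set of HNRNPDL, 11746948_a_at, differed by -0.34 (SE 0.05, adjusted p = 0.0019), and that of HNRNPC, the dim 11762054_a_at, by -0.38 (SE 0.10, adjusted p = 0.0254). In SRSF10 all 7 probe sets had lower means with podofilox, from -0.32 on 11721309_x_at (adjusted p = 0.00144) to -0.09. In all, 18 of the 34 genes had a fallen probe set and 4 had a risen one. The share of all genes with such a probe set was not counted, so these 2 counts have no background. A gene with more probe sets has more chances of a call. Of the 34 genes 27 had more than 1 probe set, against 11734 of all 18132. When all sets of the gene were averaged SRSF10 passed the test too (-0.19, adjusted p = 0.0131), as did HNRNPUL1 (-0.15, adjusted p = 0.0331).

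**Figure D3:**
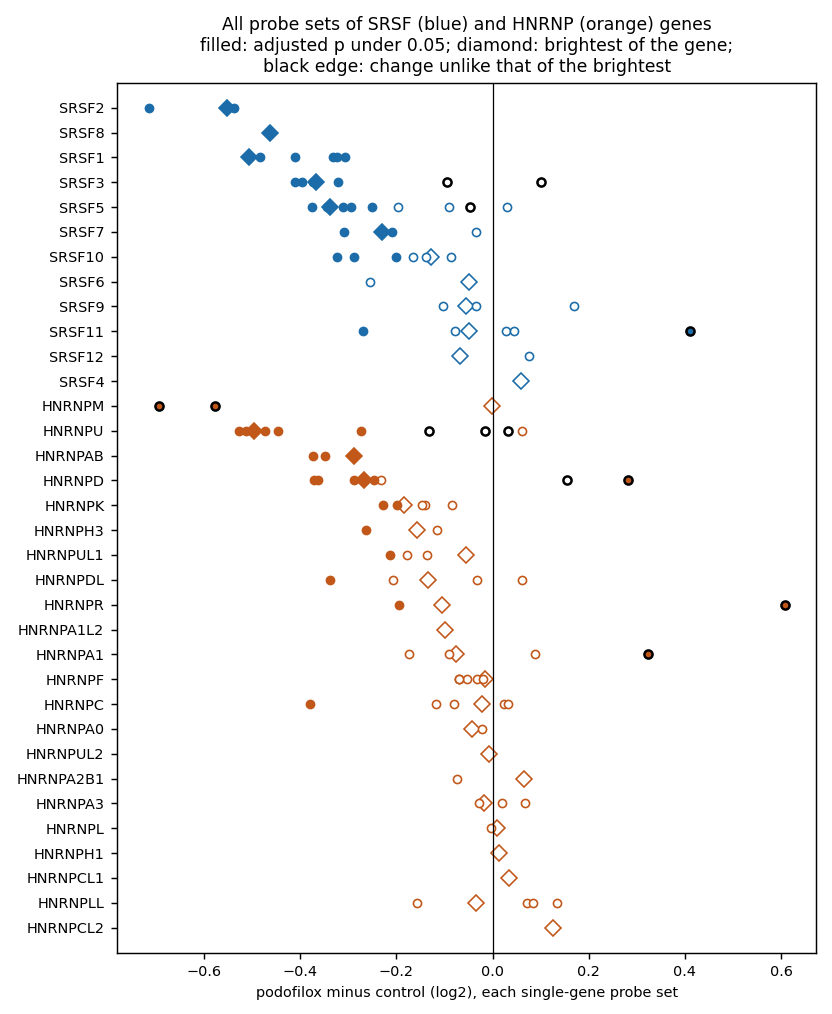
Difference in log2 expression (podofilox minus control, horizontal axis) of each of the 137 probe sets, by gene, for SRSF (blue) and HNRNP (orange) genes; diamonds are the brightest of a gene, and filled symbols passed the test. The 3 probe sets of SRSF2 lie between -0.71 and -0.54, while HNRNPM and HNRNPR, among others, have probe sets far apart, with a black edge where the change was unlike that of the brightest.

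Whether probe sets of a gene changed unequally was tested on the difference between each further probe set and the brightest one of its gene within an array, over all 26856 further probe sets. Of the 103 further probe sets of SRSF and HNRNP genes, 13 changed unlike their brightest (12.6%), against 3.65% of all. Among those above the median signal it was 14 of 95, against 6.07% of all. They belonged to 8 genes. The change of 11 of the 13 was higher than that of the brightest (2.19% of all) and of 2 lower (1.46% of all). Which transcripts each probe set reads was not tested, so unequal change is not tied here to a splice form.

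HNRNPM gave the clearest case. Probe set 200072_PM_s_at read 11.42, 11.47, 11.42 and 11.44 in control cells and 10.74, 10.74, 10.72 and 10.78 with podofilox, with no overlap (difference -0.69, SE 0.04, adjusted p = 1.04e-05). Probe set 11739175_a_at went from 11.82, 11.86, 11.73 and 11.80 to 11.16, 11.24, 11.25 and 11.26 (difference -0.58, SE 0.05). The brightest, 11761516_x_at, read 12.39, 12.39, 12.41 and 12.39 and then 12.44, 12.44, 12.30 and 12.39. Relative to it the first changed by -0.69 (adjusted p = 3.16e-04) and the second by -0.58 (adjusted p = 0.002). HNRNPM passed the test when all its sets were averaged (-0.42, adjusted p = 2.83e-05) and when sets of the _x_at and _s_at kinds were left out (-0.58, adjusted p = 4.46e-05).

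HNRNPR, a relative of the RNA-binding protein SYNCRIP, had probe sets that moved in opposite directions. Its probe set 11758936_at read 7.44, 7.38, 7.54 and 7.22 in control cells and 8.11, 7.97, 7.93 and 8.00 with podofilox. All podofilox arrays were higher (difference 0.61, SE 0.07, adjusted p = 3.69e-04), the largest rise among the 137 probe sets. Probe set 11747482_a_at of HNRNPR fell by 0.19 (adjusted p = 0.0154), and the brightest was at -0.11. The test of unequal change gave 0.71 for the risen one (adjusted p = 0.00296).

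Rises were also seen on dimmer probe sets of HNRNPA1, HNRNPD and SRSF11. On 11760085_s_at, HNRNPA1 read 10.79, 10.80, 10.65 and 10.68 in control cells and 10.995, 11.08, 11.16 and 10.98 with podofilox (difference 0.32, SE 0.06, unequal change 0.40, adjusted p = 0.00775). On 11763263_at, SRSF11 read 8.30, 8.40, 8.15 and 8.19 and then 8.59, 8.71, 8.74 and 8.64 (difference 0.41, SE 0.06, unequal change 0.46, adjusted p = 0.00644), while another of its sets, 11761781_a_at, fell by 0.27 (adjusted p = 0.0351). HNRNPD rose on 11761589_x_at, whose control arrays read 8.31, 8.32, 8.19 and 8.28 and podofilox arrays 8.59, 8.65, 8.49 and 8.50 (difference 0.28), while 11760952_x_at did not pass (0.15). Both differed in their change from the brightest probe set of HNRNPD, which fell (unequal change 0.55 and 0.42, adjusted p = 0.0101 and 0.00399). In the 4 risen probe sets every podofilox array lay above every control array.

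The remaining unequal probe sets differed by being nearer to 0 than a brightest one that fell. For HNRNPU these were 11722002_a_at (-0.02), 11757197_s_at (-0.13) and 11744381_s_at (0.03), dimmer than the brightest probe set of the gene, with unequal changes of 0.48, 0.36 and 0.53. For SRSF3 and SRSF5 they were 11723038_at (-0.10, unequal change 0.27) and 11760276_s_at (-0.05, unequal change 0.29). The call of 11723038_at ended without control replicate 1 or 4 or podofilox replicate 2 or 4 (adjusted p up to 0.0706), and that of 11760276_s_at without control replicate 1, 3 or 4 or podofilox replicate 2 or 4 (up to 0.0661). Set against the mean of the other probe sets of the gene instead of the brightest, both lost their call, as did 11757197_s_at of HNRNPU and 11739175_a_at of HNRNPM (-0.23, adjusted p = 0.0571). The 13th, 11760279_a_at of SRSF3, was at the dim end (3.81 in control cells), with an unequal change of 0.47 (adjusted p = 0.0264). It was no longer called without control replicate 1, 2, 3 or 4 or podofilox replicate 3 (adjusted p up to 0.0874).

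**Figure D4:**
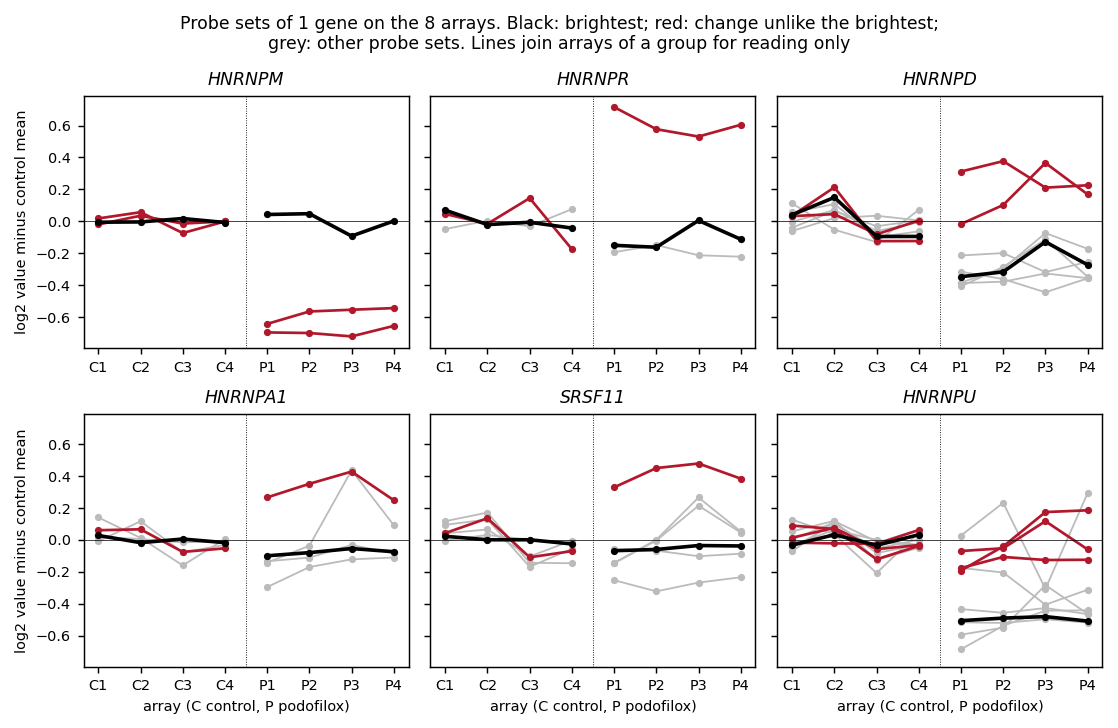
Log2 values of the probe sets of 6 genes minus each probe set's control mean (vertical axis), on control arrays C1 to C4 and podofilox arrays P1 to P4; black is the brightest probe set of the gene, red those that changed unlike it and grey the others. In HNRNPM the red lines fall by 0.58 and 0.69 while the black one stays near 0, and in HNRNPR the red line is 0.61 higher with podofilox.

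The other genes of splicing were read from 6 lists. Of their 112 measured genes 29 fell (25.9%) and 5 rose, where 12.5% of all genes fell and 8.55% rose, and the median difference was -0.08. Many of the listed genes are bright, and of all genes with a mean of at least 9, 20.5% fell. Among proteins of the U1 and U2 particles and the branch site, 4 of 18 fell and 0 rose by limma (7 lower and 0 higher at an unadjusted p under 0.05). These were SF1, which binds the branch site (-0.42, adjusted p = 2.45e-04), the U2 subunits SF3B3 (-0.34) and SF3A3 (-0.28), and the helicase DDX46 (-0.24). Among the 13 Sm and LSm ring proteins 0 fell and 0 rose by limma, although 4 were lower at an unadjusted p under 0.05: SNRPD1 (-0.13), LSM3 (-0.10), SNRPB (-0.11) and SNRPD3 (-0.10). SNRPD1 passed when its sets were averaged (-0.27, adjusted p = 0.00202) and without _x_at and _s_at sets (-0.34, adjusted p = 0.00154). With only genes above the median signal tested, SNRPD1 (adjusted p = 0.028), LSM3 (0.0239) and SNRPB (0.0477) passed. With trend and robust estimation all 4 did (adjusted p at most 0.0277).

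Of 24 proteins of the tri-snRNP and the catalytic spliceosome, 8 fell (33.3%) and 1 rose (4.17%). Among all genes 12.5% fell and 8.55% rose, and of those with a mean of at least 9, 20.5% fell. PRPF31, which holds the tri-snRNP together, differed by -0.39 (adjusted p = 5.38e-04), PRPF8, the central scaffold of the spliceosome, by -0.26 and PRPF19 by -0.31, while SNRNP27 rose by 0.21. Of 35 SR-related proteins and other regulators, 14 fell (40%) and 3 rose (8.57%). The epithelial splicing regulator ESRP2 read 8.78, 8.86, 8.92 and 8.90 in control cells and 8.38, 8.38, 8.24 and 8.26 with podofilox (difference -0.55, SE 0.05, adjusted p = 1.19e-04). RBM5 (-0.48) and the SR-related protein SREK1 (-0.41) fell as well. SYNCRIP, an hnRNP known as hnRNP Q, fell by 0.45 on its brightest probe set. With sets of the _x_at and _s_at kinds left out it was at 0.00 (adjusted p = 0.996). The 3 that rose, named after their values were seen, were MBNL2 (0.68, SE 0.13), PTBP3 (0.24) and RBM39 (0.21).

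Of 10 measured kinases and carriers of SR proteins, 1 rose and 1 fell (10% each), near the shares of all genes (8.55% and 12.5%). The kinase CLK3 rose from 8.51 ± 0.04 to 8.90 ± 0.05 (SD, n = 4 each, difference 0.39, SE 0.04, adjusted p = 3.17e-04), and the import receptor TNPO2 fell by 0.25. TNPO2 did not pass with those kinds of probe set left out (-0.24, adjusted p = 0.0973), nor did SNRNP27 (0.22, adjusted p = 0.0648). DYRK1A (-0.11) and CLK2 (-0.10) did not pass in the main fit. With only genes above the median signal tested both passed (adjusted p = 0.029 and 0.0479). Trend and robust estimation gave 0.0334 and 0.0445. DYRK1A also passed with array weights (0.0438), and CLK2 when its probe sets were averaged (0.0299). Of 12 measured factors of nonsense-mediated decay, 2 fell (16.7%), UPF2 (-0.21) and SMG5 (-0.24), and 0 rose by limma. That share lay between those of all genes (12.5%) and of genes with a mean of at least 9 (20.5%). At an unadjusted p by limma under 0.05, 3 were lower and 0 higher. MAGOH (-0.13) and MAGOHB (-0.17) did not pass. MAGOH passed without control replicate 1 (-0.17, adjusted p = 0.0391). With all arrays it passed when only genes above the median signal were tested, and when its probe sets were averaged. It also passed with trend and robust estimation, and with array weights (adjusted p by limma at most 0.0375 in these settings).

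**Figure D5:**
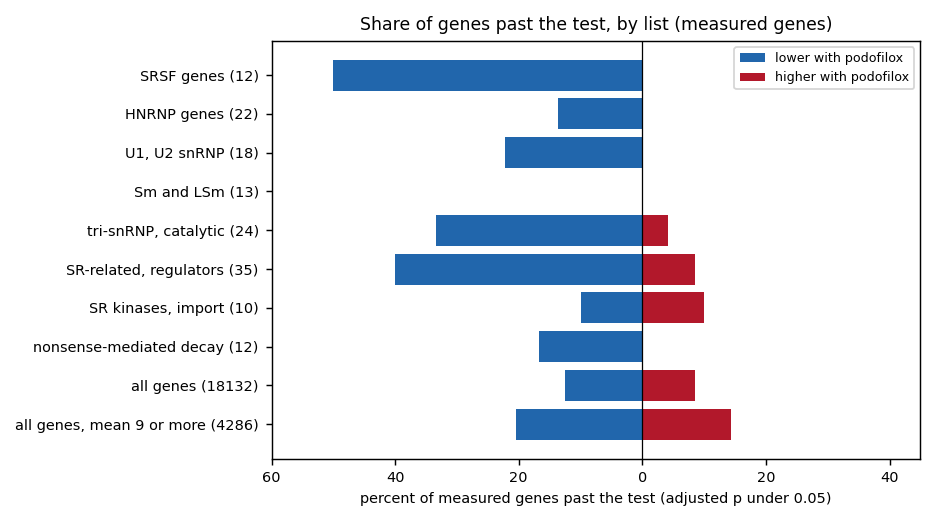
Percent of measured genes that fell (blue, to the left) or rose (red, to the right) at an adjusted p under 0.05, for SRSF and HNRNP genes, 6 lists of splicing genes, all genes and all genes with a mean of at least 9, with the number measured in brackets. The SRSF genes reach 50% lower and the HNRNP genes 13.6%, beside 12.5% of all genes and 20.5% of the brighter ones.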

How the data were processed

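Expression was measured in 8 samples, 4 per group, 1 array each. The deposited log2 values were made by the authors with RMA, per the submitters' processing notes. The software used for RMA was not given in the sources used here. No detection calls or filter were used, and 4 arrays a group limit the precision. Of 49395 probe sets, 102 were manufacturer controls, 44988 had 1 gene in the platform annotation, 1832 had several genes and 2473 had none listed. For 44961 the Entrez number was found in RefSeq's GRCh38.p14 gene table, and 0 symbols changed.

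Genes (brightest probe set), all single-gene probe sets, and further probe sets minus their gene's brightest one were each fitted with limma 3.58.1 in R 4.3.3 (lmFit, eBayes, group as the only term, two-sided, Benjamini-Hochberg over the whole fit, threshold 0.05). Errors are moderated SEs and intervals cover 95%. Of the 26856 further probe sets, 27 had the values of their brightest one. The step was tested on simulated data. Of the 34 brightest probe sets, 24 were of the _x_at or _s_at kind.

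Members and lists were chosen with earlier results of these data known. Values per array are given for members past the test, for up to 12 unequal probe sets and for members named beside them, and up to 4 genes per list are named by smallest p. Alternatives were a median filter, quantile normalization or median centring once more, trend with robust estimation, array weights, blocks, array subsets, other summaries of probe sets, and each array left out. Figures used matplotlib 3.10.9 in Python 3.11.15.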

Additional observations from a re-analysis of the deposited data

Results flagged for a closer look

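The 34 genes, the 13 unequal probe sets and up to 4 genes per splicing list were examined for outlying arrays. MBNL2, PTBP3, RBM39, the markers and the other probe sets named were not. Of 142 groups of 4 arrays examined, 8 had 1 array far from the other 3, where chance flags about 1 in 20 groups. The gaps were small on the log2 scale. Control replicate 3 was highest in HNRNPM (12.4104, next 12.3889), HNRNPCL2 (3.631, next 3.4211) and SF3A3 (10.1061, next 10.0766). Control replicate 1 was lowest in PRPF19 (10.3495, next 10.5728) and MAGOH (9.9911, next 10.1364), and control replicate 2 was highest in MAGOHB (7.2159, next 7.0051). On the HNRNPU probe set 11722002_a_at, control replicate 4 (6.584, next 6.5048) and podofilox replicate 3 (6.6393, next 6.4695) were highest.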

How the results depend on the processing

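The count of 9 fallen genes was lowest, at 6, within arrays 1 and 2 (2.99% of all genes) and within arrays 3 and 4 (7.64%). It was highest, at 13, with trend and robust estimation (15% of all genes). On leaving out 1 array it was 8 to 11, while 9.04% to 11.8% of all genes fell. Under every alternative run 0 of the members rose by limma, while 2.58% to 16.3% of all genes tested did. Of the 9, HNRNPU and SRSF1 kept their call under every alternative run, and SRSF2 under all but the one without _x_at and _s_at sets, where it has no value since all 3 of its sets are of those kinds. Over 84 single differences and unequal changes under their alternatives, 85 of 1546 comparisons lost a call, 42 gained one and 0 changed sign while past the threshold. Fallen probe sets numbered 29 within arrays 3 and 4 (5.8% of all). They numbered 23 without _x_at and _s_at sets, where 50 were tested (9.14% of all). On leaving out 1 array they numbered 41 to 56 (7.18% to 9.55% of all). Risen ones numbered 1 within arrays 1 and 2 (3.01% of all) and 2 without _x_at and _s_at sets (6.99% of all). They numbered 4 whichever array was left out (5.37% to 7.67% of all). Unequal probe sets numbered 5 without _x_at and _s_at sets (27 tested, 4.15% of all). On leaving out 1 array they numbered 10 to 13 (1.59% to 2.86% of all). Within arrays 1 and 2 or 3 and 4 alone they numbered 0. There 0 of 26856 passed over the whole table, so those subsets say nothing. The cause was not tested.

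Deviations from the group mean correlated weakly between same-numbered arrays (-0.13, 0.09, -0.24 and 0.06). These correlations cannot settle whether the numbers pair samples, and the labels do not say. The main fit used no pairing. With the replicate block, 8 genes fell (8.96% of all genes) and 41 probe sets fell (7.06% of all). In that fit 4 probe sets rose (5.35% of all) and 6 were unequal (1.18% of all). With only genes above the median signal, 10 of 29 members and 28.6% of all genes fell.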

Other observations

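Probe sets assigned to several genes were kept out of the report. Of 10 such probe sets that name a member or a readthrough gene of one, 1 fell and 0 rose by limma over 46820 annotated probe sets. The share called in that fit was not counted. Of all single-gene probe sets 10.2% fell and 7.83% rose, so 1 of 10 is near that share. The fallen one was 11723198_s_at, shared by HNRNPA3 and the pseudogene HNRNPA3P1. It read 11.98, 12.10, 11.91 and 12.01 in control cells and 11.69, 11.80, 11.90 and 11.82 with podofilox (difference -0.20, SE 0.06, adjusted p = 0.0456). The groups did not overlap. The other probe set of that pair differed by -0.13 and did not pass. HNRNPH2, which binds G runs, was read together with its readthrough gene by 3 probe sets, which differed by -0.17, -0.01 and -0.01 and did not pass.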
